A study of Mus musculus with 6 samples.

Results

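The genes described here are 10 genes of lipid uptake, lipid droplets and adipogenic transcription factors (Lpl, Angptl4, Cd36, Fabp4, Fabp5, Plin2, Hilpda, Pnpla2, Pparg and Cebpa), out of 22180 genes measured. The list was chosen by gene function and with earlier results of these arrays known, so the differences below describe the members and are no independent support for the choice. Each gene is represented by the probe set that has its single symbol in the platform annotation and, where there are several, the highest mean over the 6 arrays. All 10 members were found.

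The arrays hold RNA of fibroblast-like synoviocytes, which are fibroblasts of the membrane that lines a joint, cultured from knee synovium of C57BL6 mice and used at passage 4 to 8. Every culture received an adenovirus (multiplicity of infection 800, meaning infectious particles per cell) for 2 h and was then kept for 24 h. In the Mock group (3 arrays) the virus was empty, and in the Ad-Epas1 group (3 arrays) it carried Epas1, the gene of HIF-2alpha, a transcription factor that is stable when oxygen is low. No uninfected culture was measured, so both groups carry whatever the virus itself did, and the promoter driving Epas1 and the age of the mice are not given in the sources used here. The labels call the replicates biological without saying whether they came from separate animals, so each p-value reflects only how far these samples spread, which may in part be technical.

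Values are log2 expression values after robust multi-array averaging (RMA), and a difference of 1 is a doubling. Arrays have no read depth, and the number of arrays limits the precision. Epas1 stood between 8.51 and 8.71 on the Mock arrays and between 13.11 and 13.15 on the Ad-Epas1 arrays, as labelled. As a yardstick for a silent gene, the 95th percentile of 1394 olfactory or vomeronasal receptor genes was at 6.62. The fibroblast markers (16 measured) were above that level on every array except 1 marker on Ad-Epas1 replicate 3. Thy1, the gene of the CD90 antigen used to define these cultures, stood between 11.055 and 11.17 in Mock and between 10.396 and 10.975 in Ad-Epas1. Its log2 fold change was -0.44 (limma adjusted p = 0.089), and -0.60 without Ad-Epas1 replicate 3 (adjusted p = 0.0049). The labels describe cultures with more than 90% CD90-positive and less than 1% CD14-positive cells, but macrophage transcripts were plentiful. The mean level of 21 macrophage markers lay between 10.72 and 10.99 on the Mock arrays and at 10.57 and 10.42 on Ad-Epas1 replicates 1 and 2, and 21 of 21 exceeded 6.62 on each of these 5 arrays. Ad-Epas1 replicate 3 stood apart, with a mean of 7.17, 14 of 21 markers above 6.62, and 19 of 21 more than 1 log2 unit below their Mock mean. Members, gene lists and the genes named from them are therefore given with and without that array. In bulk RNA, fewer cells of a type and less RNA per cell cannot be told apart.

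Lipoprotein lipase, bound at the cell surface, releases fatty acids from circulating triglyceride, and CD36 and the fatty acid binding proteins carry them into and through the cell. Surplus fatty acid is stored as triglyceride in droplets coated by perilipins and is released again by adipose triglyceride lipase. PPARgamma and C/EBPalpha are the transcription factors that drive fat cell differentiation and switch on much of this machinery, which macrophages also use. Low oxygen is known to favour droplet storage in many cell types.

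Over all 6 arrays, 1 of the 10 members rose (Hilpda), 3 fell (Lpl, Pparg and Cebpa) and 6 did not pass the test (limma, Benjamini-Hochberg adjusted p under 0.05 over all 22180 genes). Of all genes, 16.3% passed, 6.57% higher and 9.75% lower. The same 4 members were those whose groups did not overlap, 1 higher and 3 lower, beside 39.7% of all genes in either direction, 21.3% higher and 18.4% lower. The median log2 fold change was 0.38 over the members and 0.05 over all genes. Without Ad-Epas1 replicate 3, 4 members were called higher (Hilpda, Cd36, Plin2 and Fabp4) and 3 lower, beside 24.3% of all genes, 10.3% higher and 14.0% lower. The 10 genes thus split by array as well as by group, as the plot of levels by array shows.

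**Figure D1:**
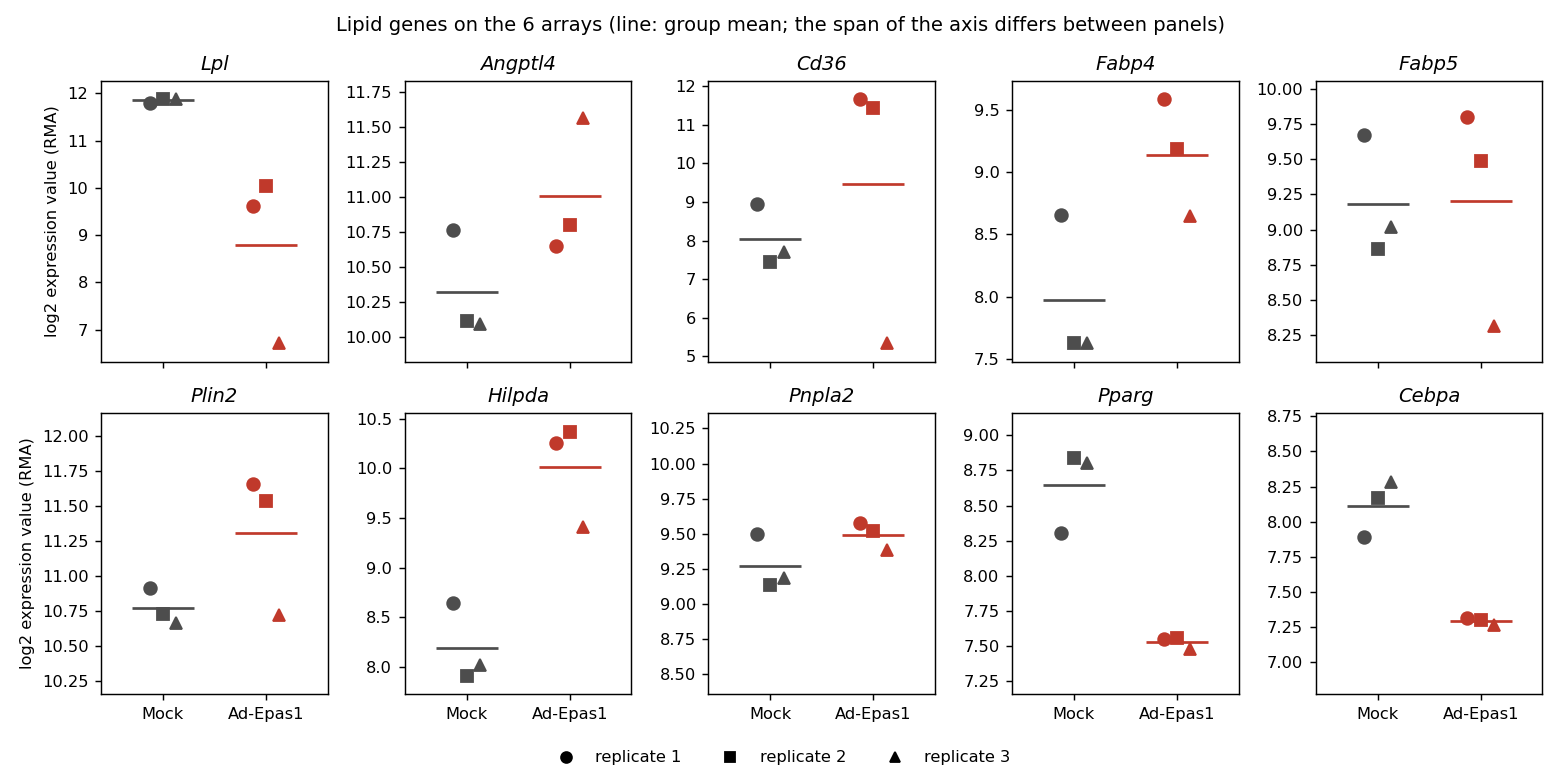
Log2 expression value (RMA) of each of the 10 genes on 3 Mock arrays (grey) and 3 Ad-Epas1 arrays (red), with the marker shape giving the replicate and the line the group mean; the vertical span differs between panels. Pparg and Cebpa are tight and low on all 3 Ad-Epas1 arrays, while Cd36 is at 11.66 and 11.42 on Ad-Epas1 replicates 1 and 2 and at 5.34 on replicate 3.

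Lpl, which encodes lipoprotein lipase, was lower on every Ad-Epas1 array. It stood at 11.81, 11.87 and 11.87 on Mock replicates 1, 2 and 3, and at 9.62, 10.05 and 6.71 on Ad-Epas1 replicates 1, 2 and 3. The Mock arrays are nearly identical, and the lowest value belongs to the array with few macrophage transcripts. The difference was 8.34-fold lower in Ad-Epas1 (log2 fold change -3.06, SE 0.81, limma adjusted p = 0.047). Without Ad-Epas1 replicate 3 it was 4.06-fold lower (-2.02, SE 0.13, adjusted p = 3.2e-04), so the fall was smaller and its error too. With any other array left out the call ended (adjusted p 0.056 to 0.14), as it did with a robust variance prior that follows the level (adjusted p = 0.11). The macrophage markers had a median of -0.10 and -0.30 relative to Mock on Ad-Epas1 replicates 1 and 2 and of -3.81 on replicate 3, and their part in the Lpl values was not tested beyond leaving out that array. A second, dimmer probe set of Lpl lay between 6.84 and 7.22 in Mock and between 5.17 and 5.73 in Ad-Epas1, with a log2 fold change of -1.53 (SE 0.16, adjusted p = 0.0028 over all probe sets) and of -1.39 without Ad-Epas1 replicate 3 (adjusted p = 0.0010). The mean of both probe sets gave -2.30 (adjusted p = 0.021).

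Angptl4 encodes a secreted protein that inactivates lipoprotein lipase and is known as a target of both PPAR and HIF factors. It stood at 10.77, 10.12 and 10.09 in Mock and at 10.65, 10.80 and 11.56 in Ad-Epas1. The groups overlap, because Mock replicate 1 lies above Ad-Epas1 replicate 1. The log2 fold change was 0.68 (95% interval 0.006 to 1.35, limma adjusted p = 0.15), and it was 0.40 without Ad-Epas1 replicate 3 (adjusted p = 0.22). Angptl4 was the only member higher on Ad-Epas1 replicate 3 than on replicates 1 and 2, by 0.83 against their mean, and 99.0% of all genes had a gap no larger than this.

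Cd36, a scavenger receptor that takes up fatty acids and oxidised lipoproteins, gave the widest spread of the 10 genes. It stood at 8.95, 7.43 and 7.71 in Mock, and at 11.66, 11.42 and 5.34 in Ad-Epas1. Ad-Epas1 replicates 1 and 2 lie above all Mock arrays and replicate 3 lies below all of them, under the level that marks 95% of the receptor genes. Over 6 arrays the log2 fold change was 1.44 with a 95% interval from -2.46 to 5.34 (limma adjusted p = 0.58). Without Ad-Epas1 replicate 3 it was 3.51, or 11.4-fold higher (SE 0.42, adjusted p = 0.0021). On replicate 3 Cd36 differed by -6.20 from the mean of the other Ad-Epas1 arrays, and only 0.05% of all genes had a gap as low as this. Csf1r, the receptor that defines the macrophage lineage, fell away on the same array, at 11.26, 11.0 and 7.96 in Ad-Epas1 against 11.29 to 11.48 in Mock. It was picked from the 21 macrophage markers after its values were seen. On that array 19 of the 21 lay more than 1 log2 unit below their Mock mean. On Ad-Epas1 replicates 1 and 2, 4 and 5 of the 21 macrophage markers lay more than 1 log2 unit below their Mock mean, and the part of these cells in the Cd36 and Lpl values was not tested.

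Neither fatty acid binding protein passed in the test by group alone, on the deposited values of 6 arrays without weights. Fabp4, the form of adipocytes and macrophages, stood at 8.66, 7.62 and 7.62 in Mock and at 9.58, 9.19 and 8.64 in Ad-Epas1. Only Ad-Epas1 replicate 3 and Mock replicate 1 touch, at nearly the same value. The log2 fold change was 1.17 (SE 0.34, limma adjusted p = 0.063), and 1.42 without Ad-Epas1 replicate 3 (SE 0.33, adjusted p = 0.022). Over the same 6 arrays Fabp4 passed with array weights (1.45, adjusted p = 0.0031) or a second quantile step (1.24, adjusted p = 0.049). It also passed with the replicate number as a block (1.17, limma adjusted p = 0.012). Without Mock replicate 1 it was 1.51 (adjusted p = 0.024). Fabp5, the epidermal form that many cell types make, stood at 9.67, 8.86 and 9.02 in Mock and at 9.80, 9.49 and 8.32 in Ad-Epas1. The groups overlap fully, with a log2 fold change of 0.02 (95% interval -0.94 to 0.98, adjusted p = 0.98). Leaving out Ad-Epas1 replicate 3 gave 0.46 (adjusted p = 0.22). The other 3 probe sets of Fabp5 gave log2 fold changes of 0.04, -0.09 and 0.02, with none passing, so this gene's direction is not settled.

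The members that build or empty lipid droplets were higher on Ad-Epas1 replicates 1 and 2, to different degrees. Hilpda, a small protein of the droplet surface that inhibits adipose triglyceride lipase and is known to be induced by hypoxia, rose. It stood at 8.64, 7.92 and 8.02 in Mock and at 10.25, 10.37 and 9.41 in Ad-Epas1. All Ad-Epas1 arrays lie above all Mock arrays, replicate 3 included. The rise was 3.53-fold (log2 fold change 1.82, SE 0.30, limma adjusted p = 0.010), and 4.34-fold without Ad-Epas1 replicate 3 (SE 0.21, adjusted p = 0.0011). Leaving out Mock replicate 2 or 3 ended the call (adjusted p = 0.052 and 0.054).

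Plin2, the coat protein of droplets in most cells other than fat cells, stood at 10.91, 10.73 and 10.66 in Mock and at 11.65, 11.53 and 10.72 in Ad-Epas1. Replicates 1 and 2 of Ad-Epas1 lie above Mock, and replicate 3 lies among the Mock values. The log2 fold change was 0.54 (95% interval -0.04 to 1.11, limma adjusted p = 0.18), and without Ad-Epas1 replicate 3 it was 0.83 (SE 0.10, adjusted p = 0.0021). Pnpla2, which encodes adipose triglyceride lipase, the enzyme of the first step of triglyceride breakdown, stood at 9.50, 9.14 and 9.18 in Mock and at 9.58, 9.52 and 9.38 in Ad-Epas1. The groups overlap, and the difference was 0.22 (95% interval -0.05 to 0.49, adjusted p = 0.23). It remained small without Ad-Epas1 replicate 3, at 0.28 (adjusted p = 0.15).

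Promoter windows of 300 bases (250 before to 50 after a transcription start site, RefSeq, GRCm38.p6) were given for 6 of the 10 members, as 9 windows, since Hilpda and Pparg have several start sites. They were searched on both strands for ACGTG and GCGTG, the core letters bound by HIF factors, and for the PPAR and RXR direct repeat (AGGTCA, any base, AGGTCA). The windows of Hilpda and Plin2 are shown because these droplet genes hold the most matches when each strand is counted, with the matches in capitals. In Plin2 the ACGTG matches on the 2 strands overlap in one run of letters, CACGTG, which reads the same on both strands. Counted by site, Plin2 holds no more cores than the first window of Pparg.

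Hilpda, chr6:29272376-29272675, plus strand: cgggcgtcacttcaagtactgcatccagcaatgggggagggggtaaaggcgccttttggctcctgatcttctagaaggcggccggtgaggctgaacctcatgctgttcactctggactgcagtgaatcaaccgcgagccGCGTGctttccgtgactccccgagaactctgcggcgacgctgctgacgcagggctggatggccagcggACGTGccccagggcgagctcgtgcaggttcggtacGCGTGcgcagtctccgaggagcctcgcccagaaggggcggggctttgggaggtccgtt

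Plin2, chr4:86670010-86670309, minus strand, read along the gene: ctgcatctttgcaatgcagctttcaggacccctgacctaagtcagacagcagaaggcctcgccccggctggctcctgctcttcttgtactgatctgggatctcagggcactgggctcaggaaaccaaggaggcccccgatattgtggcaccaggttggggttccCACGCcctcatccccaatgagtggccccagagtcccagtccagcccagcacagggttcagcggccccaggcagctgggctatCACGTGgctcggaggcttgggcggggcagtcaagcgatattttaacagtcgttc

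This Hilpda window holds 1 ACGTG and 2 GCGTG, and the GCGTG nearest to the start site ends 4 bases before it. The Plin2 window holds ACGTG on each strand at the start site and 1 GCGTG. Of all 32851 windows, 19.6% hold ACGTG, 32.4% hold GCGTG and 43.8% hold either. Among the members' windows 4 of 9 do (3 of 6 genes, while the shares are per window), so a match is common. The Hilpda windows overlap, and the GCGTG of the window not shown is also the first GCGTG of the window above. The direct repeat was in none of the members' windows and in 0.0396% of all windows. These matches describe letters in short windows and do not show binding.

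Pparg and Cebpa fell, with similar levels on the 3 Ad-Epas1 arrays. Pparg, the nuclear receptor that drives fat cell differentiation, stood at 8.31, 8.84 and 8.80 in Mock and at 7.55, 7.55 and 7.48 in Ad-Epas1. The Ad-Epas1 arrays nearly coincide, replicate 3 included, and all lie below Mock. The fall was 2.18-fold (log2 fold change -1.12, SE 0.15, limma adjusted p = 0.0051), and 2.14-fold without Ad-Epas1 replicate 3 (adjusted p = 0.0047). Cebpa, the gene of C/EBPalpha, its partner in the mature fat cell programme, stood at 7.89, 8.17 and 8.28 in Mock and at 7.31, 7.30 and 7.26 in Ad-Epas1. It was 1.77-fold lower (-0.82, SE 0.11, adjusted p = 0.0053), and 1.75-fold lower without Ad-Epas1 replicate 3 (adjusted p = 0.0049). Both calls held in each of the 13 alternatives tried (adjusted p up to 0.031 for Pparg and 0.034 for Cebpa). On Ad-Epas1 replicate 3 these genes differed by -0.08 and -0.04 from the mean of replicates 1 and 2. Within Ad-Epas1 their SD was 0.04 and 0.03, against a median of 0.12 over all genes, and within Mock it was 0.30 and 0.20, against 0.09.

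The first promoter window of Pparg is shown for its contrast with the droplet genes, since Pparg fell and the window is rich in G and C. GCGTG, read on the opposite strand as CACGC, is in capitals.

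Pparg, chr6:115360894-115361193, plus strand: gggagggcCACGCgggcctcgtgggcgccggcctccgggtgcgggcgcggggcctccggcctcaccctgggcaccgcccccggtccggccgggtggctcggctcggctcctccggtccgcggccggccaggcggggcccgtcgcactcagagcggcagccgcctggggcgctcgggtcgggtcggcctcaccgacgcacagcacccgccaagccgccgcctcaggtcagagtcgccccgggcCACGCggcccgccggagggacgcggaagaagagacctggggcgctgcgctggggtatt

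The window holds GCGTG at 2 places and no ACGTG, and 80.3% of its bases are G or C, against 64.3% for the Hilpda window. The other windows of Pparg held neither core, nor did those of Cebpa, Cd36 and Pnpla2. A core was thus present both in a gene that rose and in a gene that fell.

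**Figure D2:**
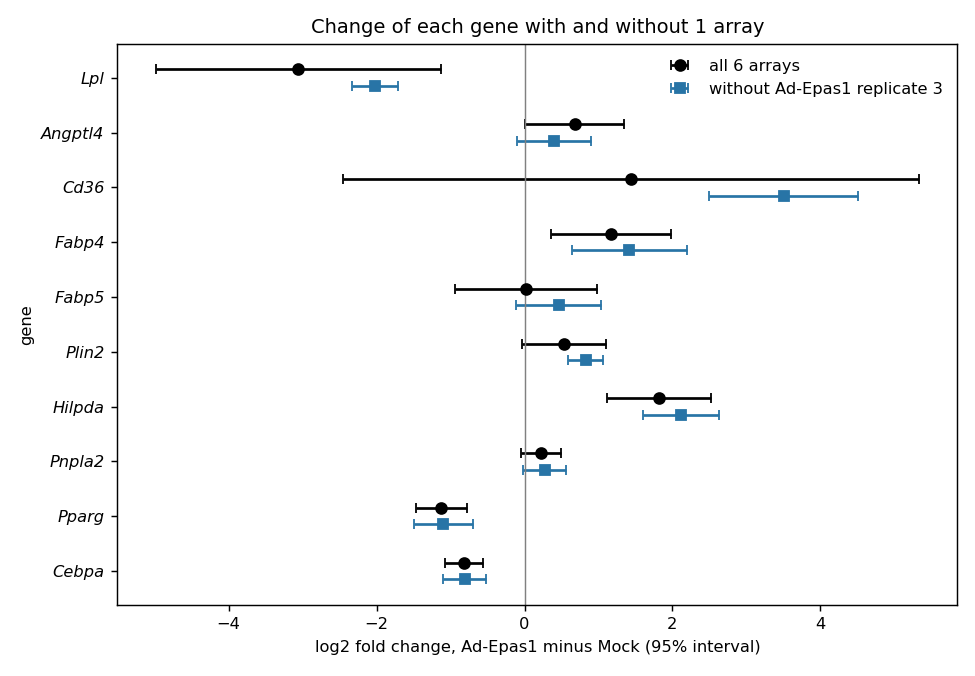
Log2 fold change of each gene, Ad-Epas1 minus Mock, with its 95% interval from limma, over all 6 arrays (black circles) and without Ad-Epas1 replicate 3 (blue squares). Pparg, Cebpa and Hilpda keep their place, the interval of Lpl narrows around -2.02, and Cd36 moves from 1.44 to 3.51.

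Array by array, 9 of the 10 members were lower on Ad-Epas1 replicate 3 than on both other Ad-Epas1 arrays, beside 31.8% of all genes. The gap to the mean of those arrays was -3.12 for Lpl, -1.33 for Fabp5, -0.90 for Hilpda, -0.87 for Plin2 and -0.74 for Fabp4, against -0.16 for Pnpla2. Cd36 and Lpl had the widest gaps, and those of Pnpla2, Pparg and Cebpa were the narrowest of the 10 genes. The part of macrophages in this was not tested. The fibroblast markers had medians of -0.46, -0.24 and -0.11 relative to Mock on Ad-Epas1 replicates 1, 2 and 3. The endothelial markers, of which 12 were measured, had mean levels of 6.52 to 6.62 in Mock and 6.67 to 6.93 in Ad-Epas1. Of 12 measured markers of mature fat cells, 6 lay above 6.62 on each Mock array and 8 or 9 on each Ad-Epas1 array, among them the members Lpl, Cd36 (not on Ad-Epas1 replicate 3) and Fabp4. The markers above 6.62 only in Ad-Epas1 lay close to it. They were Retn and Slc2a4, at 6.64 to 6.83 on all Ad-Epas1 arrays, Cidec on replicate 1 and Lep on replicate 3 (6.70). Retn, Slc2a4 and Lep did not pass (limma adjusted p = 0.133, 0.158 and 0.185), nor did Cidec. Adipoq, the gene of the fat cell hormone adiponectin, lay between 5.39 and 5.89, Cidec, a droplet fusion protein, between 6.38 and 6.68, and Plin1, the droplet coat of fat cells, between 6.97 and 7.13. None of these 3 genes passed (limma adjusted p = 0.21 for Adipoq, 0.36 for Cidec and 0.98 for Plin1). By the same test, 6.57% of all genes were higher and 9.75% lower, and 10.3% and 14.0% without Ad-Epas1 replicate 3. Beside these shares, no macrophage marker rose and 5 of 21 fell, and 2 were higher and 7 lower without that array. Of 16 fibroblast markers 2 rose and 4 fell (2 and 7 without that array), of 12 fat cell markers 1 fell, Lpl (2 higher and 1 lower without it), and of 12 endothelial markers 1 rose (5 without it). Of 9 pericyte and smooth muscle markers 2 fell (3 without it), of 9 lymphocyte and neutrophil markers none passed (1 higher without it), and of 8 chondrocyte and osteoblast markers 1 fell (1 without it).

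**Figure D3:**
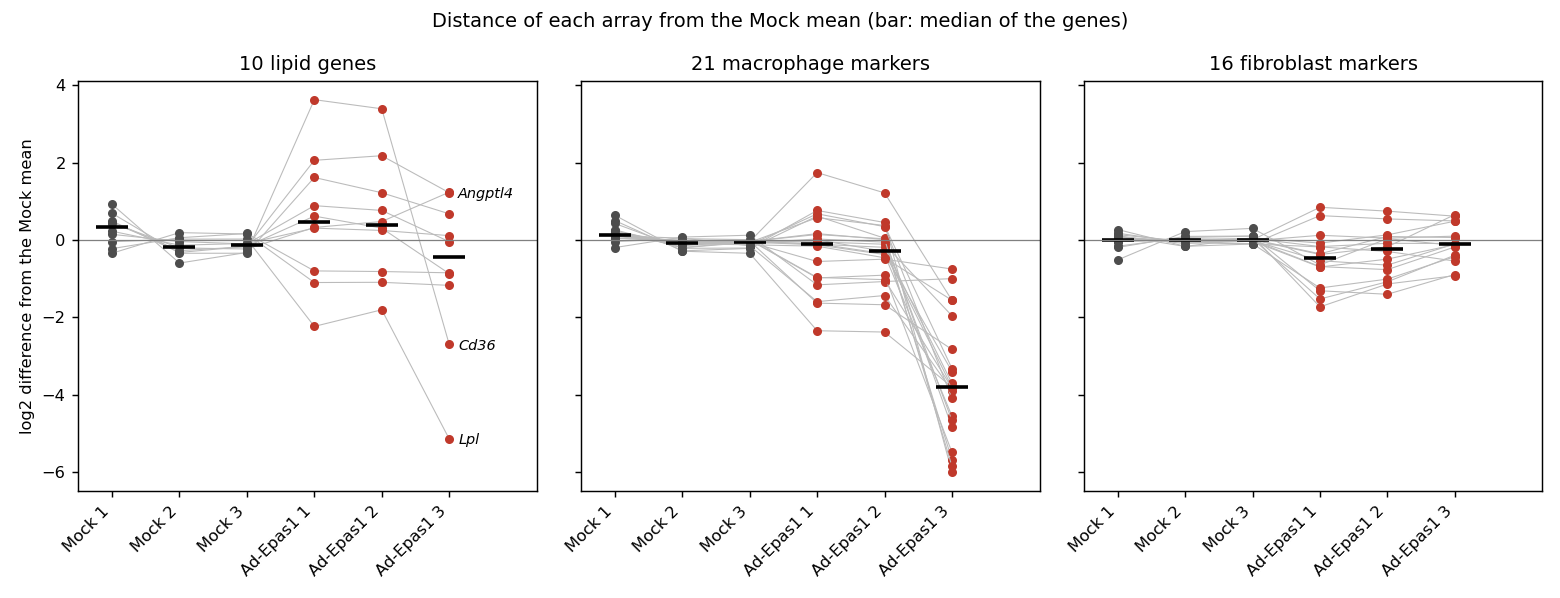
Log2 difference of each gene from its Mock mean on the 6 arrays, for the 10 lipid genes, 21 macrophage markers and 16 fibroblast markers; points are genes, grey lines join the values of 1 gene and black bars are medians. On Ad-Epas1 replicate 3 the macrophage median lies at -3.81, Lpl and Cd36 drop with it, Angptl4 lies above Mock, and the fibroblast median is at -0.11.

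The genes whose pattern over the 6 arrays was most like that of a called member were ranked by Pearson correlation among 2097 genes with a range of at least 1 log2 unit, as a description over 6 arrays that share the group difference. For Lpl they were C1qc, a complement chain made by macrophages (r = 0.997, log2 fold change -2.31), and Plxnc1, a semaphorin receptor (r = 0.996, log2 fold change -1.52, limma adjusted p = 0.055). For Hilpda they were Slc10a6, a transporter of sulfated steroids (r = 0.999, log2 fold change 1.46), and Fam117b (r = 0.999, log2 fold change 0.81). For Pparg they were Aff2 and Angpt4, an angiopoietin (both r = 0.999), and for Cebpa they were Ckap2l, a mitotic spindle protein, and Arhgap19 (both r = 0.998). Likeness this close was not rare, since 12 genes exceeded r = 0.99 for Lpl, 21 for Hilpda, 50 for Pparg and 52 for Cebpa.

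Around the members, 157 further genes of lipid handling and adipogenesis were measured, of which 16 rose, 18 fell and 123 did not pass, with a median log2 fold change of 0.08. Of all genes, 6.57% were higher and 9.75% lower, with a median of 0.05. Without Ad-Epas1 replicate 3 the counts were 25 higher and 29 lower, beside 10.3% and 14.0% of all genes. The list counts below are to be read against these shares. Of 22 measured genes of lipoprotein lipolysis and lipoprotein receptors, 2 rose and 1, Lpl, fell (4 higher and 3 lower without Ad-Epas1 replicate 3). The risen genes were Olr1, a receptor of oxidised LDL, and Scarb1, the HDL receptor. Their log2 fold changes were 0.50 (limma adjusted p = 0.028) and 0.45 (adjusted p = 0.036), and 0.57 and 0.52 without Ad-Epas1 replicate 3. Olr1 stood at 5.92, 6.01 and 5.78 in Mock and at 6.59, 6.35 and 6.25 in Ad-Epas1. All these values lie under 6.62, the yardstick for a silent gene, so the rise of Olr1 lies within the range of such genes. Lipg, the gene of endothelial lipase, which like lipoprotein lipase acts on lipoproteins at the cell surface, stood at 7.29, 8.06 and 7.95 in Mock and at 9.04, 9.64 and 8.33 in Ad-Epas1. Its groups did not overlap, with a difference of 1.23 (adjusted p = 0.058), and of 1.57 without Ad-Epas1 replicate 3 (adjusted p = 0.0077), opposite in sign to Lpl.

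Of 25 genes of fatty acid uptake, binding and activation, 1 rose and 1 fell (4 higher and 3 lower without Ad-Epas1 replicate 3). Mfsd2a, a transporter of lysophospholipid-bound fatty acids, was higher by 0.38 (limma adjusted p = 0.041), and Acsl5, which joins fatty acids to coenzyme A, fell by 0.45 (adjusted p = 0.045). They differed by 0.46 and -0.32 without Ad-Epas1 replicate 3. Slc27a5 differed by 0.27 (adjusted p = 0.066, and 0.096 without that array). Mfsd2a lay between 6.445 and 6.484 in Mock, under 6.62, the yardstick for a silent gene. In Ad-Epas1 it lay between 6.685 and 7.025, not far above that level. The mean of Slc27a5 over the 6 arrays, 6.45, was also under it. Of 20 droplet genes, Hilpda rose and none fell over 6 arrays. With Ad-Epas1 replicate 3 left out, Hilpda and Plin2 were higher, and Plin4 (-0.53, adjusted p = 0.020) and Bscl2 (-0.39, adjusted p = 0.015), the seipin gene of droplet formation, named after its value was seen, were lower. Over 6 arrays Plin4, a further perilipin, differed by -0.44 (adjusted p = 0.064), Spast by -0.25 (adjusted p = 0.084) and Tmem41b by 0.21 (adjusted p = 0.086), and the last 2 did not pass without that array either (adjusted p = 0.076 and 0.13). Of 14 lipolysis genes 1 fell, Prkacb, a catalytic subunit of protein kinase A (-0.40, adjusted p = 0.015, and -0.43 without Ad-Epas1 replicate 3, where 1 gene of the list was higher and 4 lower). Lipa, the lysosomal lipase, differed by -0.36 (adjusted p = 0.065) and Ddhd2 by -0.27 (adjusted p = 0.080), and both passed without that array (-0.25, adjusted p = 0.0496, and -0.32, adjusted p = 0.034).

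Triglyceride synthesis moved in both directions. Of 18 measured genes, 4 rose, 2 fell and 12 did not pass, with a median of 0.21 (7 higher and 3 lower without Ad-Epas1 replicate 3). Gpat3, which adds the first fatty acid to glycerol 3-phosphate, stood at 7.39, 7.29 and 7.35 in Mock and at 8.97, 9.33 and 8.40 in Ad-Epas1. All Ad-Epas1 arrays lie above Mock, with a log2 fold change of 1.56 (SE 0.22, limma adjusted p = 0.0066) and 1.81 without replicate 3. Gpat3 has 2 probe sets, and these values are of the brighter alone. Lpin3, a lipin that makes diacylglycerol, rose by 0.73 (adjusted p = 0.0052), and by 0.74 without replicate 3. Gpd1, which makes glycerol 3-phosphate from a glycolytic intermediate and is abundant in fat cells, stood at 7.87, 8.35 and 8.83 in Mock and at 6.72, 6.67 and 6.71 in Ad-Epas1. It fell by 1.65 (SE 0.22, adjusted p = 0.0057), and by 1.66 without replicate 3. Gpd1 has a second, dimmer probe set, and the mean of both gave -0.97 (adjusted p = 0.0024).

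Of 24 adipogenic transcription factors, Pparg and Cebpa included, 1 rose, 6 fell and 17 did not pass, with a median of -0.06 (3 higher and 6 lower without Ad-Epas1 replicate 3). Ebf1, an early B-cell factor that acts upstream of Pparg in fat cell precursors, stood at 10.06, 9.77 and 9.91 in Mock and at 7.70, 8.00 and 8.74 in Ad-Epas1, and fell by 1.77 (SE 0.25, limma adjusted p = 0.0069), and by 2.07 without replicate 3. Nfia, a factor of the brown fat programme, fell by 1.36 (adjusted p = 0.019), and by 1.68 without replicate 3. The gene of this list that rose over 6 arrays was Cebpb (0.52, adjusted p = 0.011, and 0.57 without replicate 3). It is an early factor of the same family as Cebpa that also responds to inflammation. Of 23 measured inhibitors of adipogenesis, 6 rose, 6 fell and 11 did not pass (5 higher and 6 lower without Ad-Epas1 replicate 3). Foxo1, a forkhead factor that represses Pparg, rose by 0.97 (SE 0.07, adjusted p = 9.3e-04) and Bhlhe40, a repressor induced by hypoxia, by 0.84 (adjusted p = 0.0053), while Runx1t1, a corepressor, fell by 1.93 (SE 0.20, adjusted p = 0.0025). Without replicate 3 these differences were 1.02 for Foxo1, 0.91 for Bhlhe40 and -2.14 for Runx1t1. The mean over the probe sets of Foxo1 gave 0.62 (adjusted p = 0.0027).

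Of 21 measured genes of fatty acid oxidation and PPAR regulation, 2 rose, 4 fell and 15 did not pass (3 higher and 5 lower without Ad-Epas1 replicate 3). Cpt1a, which admits long fatty acids to mitochondria, stood at 10.59, 10.65 and 10.65 in Mock and at 9.80, 9.66 and 9.69 in Ad-Epas1. It fell by 0.91 (SE 0.07, limma adjusted p = 9.8e-04), on Ad-Epas1 replicate 3 as on the others. Hadh, an enzyme of the oxidation cycle, fell by 0.73 (adjusted p = 0.0069). Ppard, the PPAR of most tissues, was higher by 0.95 (SE 0.09, adjusted p = 0.0021), opposite to Pparg. Without replicate 3 the differences were -0.90 for Cpt1a, -0.84 for Hadh and 1.01 for Ppard. Of the 24 genes named from these lists 17 were called, and 10 of the 17 kept the call with each array left out in turn. The other 7 lost it without at least 1 array: Olr1, Scarb1, Mfsd2a and Acsl5 when any of the other 5 arrays was left out (highest adjusted p 0.14), Nfia without Mock replicate 2 or 3 or Ad-Epas1 replicate 1 or 2 (up to 0.084), Prkacb without Mock replicate 2 or 3 or Ad-Epas1 replicate 2 (up to 0.064) and Cebpb without Mock replicate 2 or 3 (up to 0.058).

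**Figure D4:**
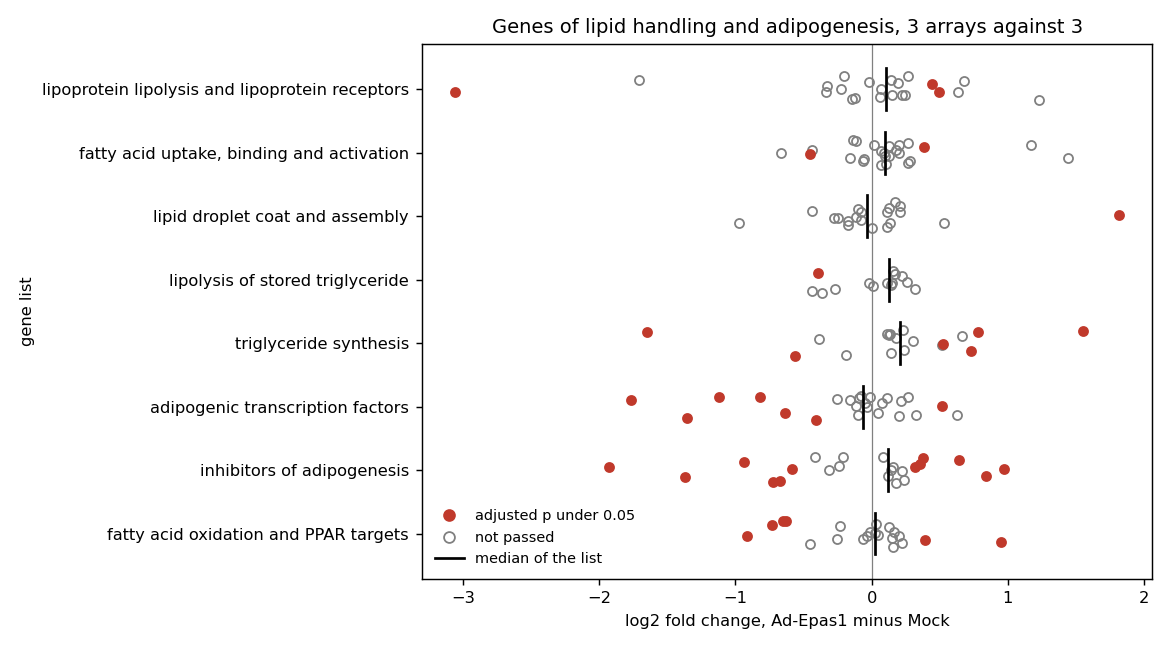
Log2 fold change, Ad-Epas1 minus Mock, of every measured gene in 8 lists of lipid handling and adipogenesis (members included); filled red points passed an adjusted p of 0.05 in limma, open points did not, and black lines are list medians. The adipogenic transcription factors hold 6 fallen genes and 1 risen gene, and Hilpda lies at 1.82 among the droplet genes.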

How the data were processed

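Per the submitters' processing notes, the authors made the deposited log2 values with RMA in Affymetrix Expression Console 1.3.1, which corrects background, equalises the distributions of the arrays and summarises the probes of each set. Equal distributions hide a change shared by most genes. No source used here names the genome build of the probe sets. Of 41345 probe sets, the platform annotation gives 1 symbol to 23521, several to 1814 and none to 16010, and only the first kind was used. Entrez identifiers of 23328 were in a RefSeq table (GRCm38.p6), which changed 0 symbols. No level filter was applied.

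The groups were compared by limma 3.58.1 in R 4.3.3 (lmFit, eBayes, two-sided, Benjamini-Hochberg over 22180 genes, threshold 0.05), grouped by sample titles. An exact permutation test of 3 against 3 cannot go below p = 0.1. The fit was tested on simulated data. SE is the moderated standard error, and group values are log2 levels. The members, the wider lists, the markers and the rule for named genes (all members, the 3 smallest p per wider list outside the members, Thy1, Epas1, Adipoq, Plin1, Cidec and Cd14, and the 2 genes most like each called member) were chosen with earlier results of these data known. Cd14 stood at 10.42, 9.99 and 10.14 in Mock and 11.92, 11.40 and 8.62 in Ad-Epas1. Promoter sequences are RefSeq's. Alternatives were the replicate number as a block, omission of each array, median centring, a second quantile step, a filter on dim genes, another variance prior, array weights, and other choices of probe set.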

Additional observations from a re-analysis of the deposited data

How the results depend on the processing

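Pparg and Cebpa kept direction and call in each of 13 alternatives, and every member but Fabp5 kept its direction. Fabp5, at 0.02 over all arrays and never called, ran from -0.28 to 0.46 with each array left out and was at -0.002 with probe sets averaged. Other uncalled values that turned were those of Cd14 (-0.17 to 1.48 with each array left out) and Plin1 (-0.037 to 0.041, and -0.006 with a second quantile step). With each array left out in turn, 418 to 2290 genes were called higher and 762 to 3100 lower, 0 to 4 and 2 to 3 members, and 6 to 25 and 6 to 29 wider lipid genes. The lowest member count came without Mock replicate 2 or 3. Array weights gave 3760 and 4031 genes, 6 and 3 members, and 35 and 38 wider genes. A second quantile step gave 1913 higher and 1731 lower genes, against 1458 and 2162, and median centring 1732 and 1928; the quantile step called 2 members higher (Fabp4, adjusted p = 0.049). The causes were not tested.

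Same-numbered arrays correlated at 0.34, -0.19 and 0.21 in their deviations over genes. With so few arrays per group these deviations depend on each other, so the correlations cannot decide whether the numbers pair the arrays. A replicate block called 2 members higher, adding Fabp4 (adjusted p = 0.012), and ended the calls of Scarb1 (0.061) and Mfsd2a (0.064). The array number limits all of this.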

Other observations

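Mock replicate 1 also differed from its group for these genes. On it 7 of the 10 members were higher than on Mock replicates 2 and 3, beside 42.3% of all genes. Cd36 was higher there by 1.38 against their mean, Fabp4 by 1.03, Fabp5 by 0.73, Hilpda by 0.68 and Angptl4 by 0.66, while Pparg was lower by 0.51 and Cebpa by 0.34. For Cd36, 99.9% of all genes had a gap no larger than this. The cause was not tested.

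Among macrophage markers, some were lower than Mock on Ad-Epas1 replicates 1 and 2, some were higher and others were close to it. Without Ad-Epas1 replicate 3, 7 of 21 were called lower and 2 higher (limma), beside 14.0% and 10.3% of all genes. Mrc1, a mannose receptor, stood at 10.95, 10.02 and 9.96 in Mock and at 7.96 and 7.93 on these arrays, and C1qa, a complement chain, at 11.01, 10.67 and 10.80 against 9.19 and 9.15. Lyz2, the lysozyme gene of myeloid cells, stood at 12.94, 12.81 and 12.75 against 12.86 and 12.78. The markers called higher were Cd14, at 10.42, 9.99 and 10.14 in Mock against 11.92 and 11.40 (log2 fold change 1.48, adjusted p = 0.0025), and Mpeg1, a pore-forming protein, at 11.14, 10.92 and 10.84 against 11.64 and 11.31 (0.51, adjusted p = 0.035). Adgre1 and Fcgr1 differed by 0.61 and 0.47 without passing (adjusted p = 0.088 and 0.061). These markers were picked from their list after their values were seen.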
